A study of Homo sapiens with 4 samples.

Results

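Chromosomes 19 and 18 of the HG00731 lymphoblastoid cell line were compared through all SMC1 and CTCF HiChIP peaks and all loops that lie on either of them. Position alone chose the members. They were 5229 of 97364 SMC1 peaks, 3733 of 63555 CTCF peaks, 2926 of the 28012 loops in the list labelled SMC1 and 5632 of the 80487 loops in the list labelled CTCF. Chromosome 19 held 3128 of these SMC1 peaks, 2437 of these CTCF peaks, 2553 loops labelled SMC1 and 4163 loops labelled CTCF. Chromosome 18 held 2101, 1296, 373 and 1469 of them, in the same order. In hg38 the chromosomes have 58.4 and 80.1 Mb of known bases. GENCODE release 44 places 1476 protein-coding genes on chromosome 19 and 266 on chromosome 18, or 25.3 and 3.32 per Mb. In gene density chromosome 19 ranks 1 and chromosome 18 ranks 21 among the 22 autosomes.

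HG00731 is a line of B lymphocytes from a single donor, immortalised with Epstein-Barr virus, and it was grown without treatment. The growth protocol in the sample labels names HG00721, while all other labels name HG00731, the name used here. HiChIP joins the ends of DNA fragments that lie together in the nucleus and then enriches those bound by a chosen protein. SMC1 HiChIP was made from cells cross-linked with formaldehyde and EGS, and CTCF HiChIP from cells cross-linked with formaldehyde alone, so target and fixation cannot be told apart. Each target had 2 biological replicates, which were merged into 1 peak list and 1 loop list before deposition. No replicate spread can therefore be given and no test between conditions was possible. Every interval below is a 95% interval for counting error alone, and neighbouring peaks and loops are not independent of each other.

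SMC1 is a core subunit of cohesin, the ring-shaped complex that extrudes loops of chromatin. CTCF is a zinc finger protein that binds a long asymmetric motif and halts cohesin, most often where 2 motifs point towards each other. Cohesin is loaded and moved at active promoters too, so part of its peaks lie there without CTCF. In lymphocyte nuclei chromosome 19 is known to lie near the centre and chromosome 18 near the periphery, and the pair is a textbook contrast of gene-rich and gene-poor chromatin.

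The 3 strongest CTCF peaks of each chromosome, by the significance that MACS3 gave them, are printed as examples. A consensus of 12 positions, CCANNAGNNGGC, was learned from the 3000 strongest CTCF summits of the other autosomes. Each line gives bases of hg38 on the forward strand, centred on the consensus match nearest to the summit, or on the summit where no match lies within 150 bp. Capitals mark a match on either strand. It lies 16 bp from the summit near LINC01002, 1 bp at LTBP4, 19 bp in ZNF516, 108 bp in NFATC1 and 144 bp in TTC39C. These peaks are not typical. Within 150 bp of the summit, 11.4% of CTCF peaks on chromosome 19 and 12.0% on chromosome 18 hold a match.
chr19:247161-247261, near LINC01002: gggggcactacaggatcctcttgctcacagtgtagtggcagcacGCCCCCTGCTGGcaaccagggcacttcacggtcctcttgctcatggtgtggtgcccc
chr19:40634653-40634753, past the 3′ end of LTBP4: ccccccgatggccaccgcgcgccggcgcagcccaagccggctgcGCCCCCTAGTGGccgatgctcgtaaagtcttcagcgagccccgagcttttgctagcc
chr19:1194640-1194740, in an intron of STK11: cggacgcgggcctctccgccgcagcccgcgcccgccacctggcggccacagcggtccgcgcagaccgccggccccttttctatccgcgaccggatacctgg
chr18:76399042-76399142, in an intron of ZNF516: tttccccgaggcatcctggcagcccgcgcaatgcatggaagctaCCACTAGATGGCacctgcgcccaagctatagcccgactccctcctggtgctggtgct
chr18:79528905-79529005, in an exon of NFATC1: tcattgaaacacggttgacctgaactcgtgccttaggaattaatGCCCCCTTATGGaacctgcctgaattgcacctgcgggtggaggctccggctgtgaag
chr18:24119125-24119225, in an intron of TTC39C: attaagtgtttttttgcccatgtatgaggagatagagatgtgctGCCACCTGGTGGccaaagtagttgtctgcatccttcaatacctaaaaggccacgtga

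The strongest CTCF peak of chromosome 19, at chr19:246719-247571, reached a -log10 q of 1108 at a fold enrichment of 20.5 and holds 5 consensus matches. Its summit lies 651 bp from a start of LINC01002, a long noncoding RNA, and an SMC1 peak with a -log10 q of 565.4, the strongest of that list on the chromosome, lies on it. The peaks past the 3′ end of LTBP4, which encodes a binder of latent TGF-beta, and inside STK11, which encodes a tumour suppressor kinase, reached 739.8 and 644.1. On chromosome 18 the peak in ZNF516 reached 435.3, the one in NFATC1, an activator of lymphocyte genes, 355.2 and the one in TTC39C 323.1. The 3 leading CTCF peaks of chromosome 19 thus all stood above those of chromosome 18 in significance, and fold enrichments ran from 14.5 to 20.5 on chromosome 19 and from 13.9 to 19.97 on chromosome 18. An SMC1 peak overlapped each of the 6.

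On chromosome 19 the next in order after the LINC01002 site, with -log10 q of 553.8 and 464.8, lay 19107 bp from the start of FFAR2, a receptor for short-chain fatty acids, and at the promoter of PSMC4, a proteasome ATPase. On chromosome 18 the strongest SMC1 peak, chr18:47748767-47749681, lay between genes 147440 bp from the nearest coding start, that of SMAD2, with a -log10 q of 435.4. The next ones lay 28977 bp from NDUFV2, a subunit of respiratory complex I, with 316.5 and in an intron of ZNF516 with 297. All 6 carried a CTCF peak, and of these 6 only the PSMC4 peak was at a coding promoter.

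Per Mb, chromosome 19 was the densest autosome for both proteins. SMC1 peaks numbered 53.5 per Mb (51.7 to 55.4) on chromosome 19 and 26.2 (25.1 to 27.4) on chromosome 18, a ratio of 2.04 (1.93 to 2.16). CTCF peaks numbered 41.7 per Mb (40.1 to 43.4) and 16.2 (15.3 to 17.1), a ratio of 2.58 (2.41 to 2.76). Over all autosomes the densities were 34.3 and 22.3 per Mb. Chromosome 18 ranked 19 for SMC1 and 20 for CTCF. The median distance between neighbouring CTCF summits was 12.2 kb on chromosome 19 and 23.9 kb on chromosome 18, and for SMC1 it was 8.77 and 11.04 kb.

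Per coding gene the order was turned round. Chromosome 19 had 2.12 SMC1 peaks and 1.65 CTCF peaks for each coding gene, the lowest values of the 22 autosomes. Chromosome 18 had 7.90 and 4.87, the highest values. The ratios were 0.268 (0.254 to 0.284) for SMC1 and 0.339 (0.317 to 0.363) for CTCF, and 0.612 and 0.773 when all annotated genes were counted in place of coding genes. Gene number therefore differed more between the chromosomes than peak number did, as the plot of density against gene density shows.

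**Figure D1:**
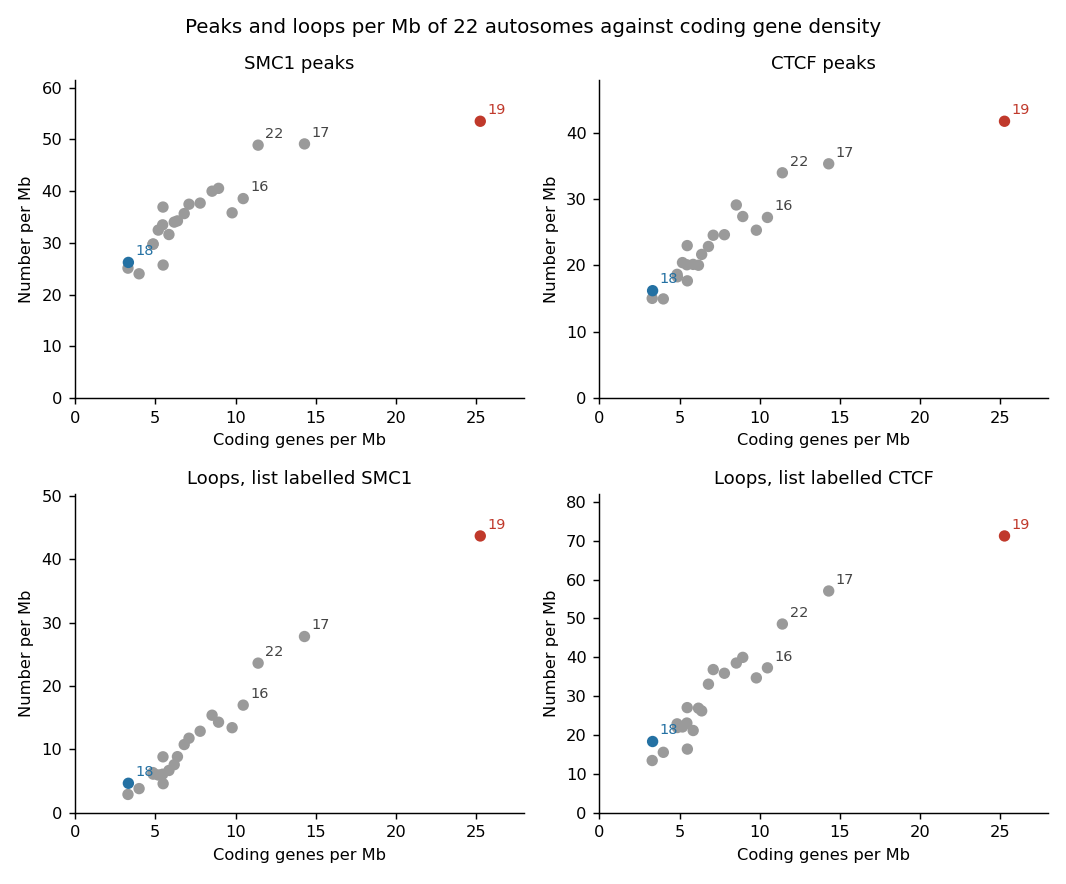
Peaks per Mb (top) and loops per Mb (bottom) of each of the 22 autosomes against protein-coding genes per Mb, with 1 point for each chromosome, chromosome 19 in red and chromosome 18 in blue. Chromosome 19 lies highest in all 4 panels, at 53.5 SMC1 and 41.7 CTCF peaks and at 43.7 and 71.2 loops per Mb, and chromosome 18 lies among the lowest points at 26.2, 16.2, 4.66 and 18.3.

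The excess on chromosome 19 was largest at coding promoters, taken as peaks within 1 kb of the start of a protein-coding transcript. SMC1 promoter peaks were 5.65-fold denser (4.94 to 6.47) on chromosome 19, at 19.1 against 3.38 per Mb, and CTCF promoter peaks 6.31-fold denser (5.31 to 7.54), at 12.5 against 1.99 per Mb. Away from promoters the ratios were 1.51 (1.41 to 1.61) and 2.06 (1.91 to 2.22). Of the SMC1 peaks of chromosome 19, 35.7% lay at a promoter, 7.67% elsewhere in an exon of a coding gene, 33.0% in an intron and 23.7% between genes. On chromosome 18 these shares were 12.9%, 4.28%, 46.8% and 36.03%. CTCF peaks were at promoters in 30.04% of cases on chromosome 19 and in 12.3% on chromosome 18, the highest and the lowest share of any autosome. Where a peak had to lie over the start itself, the difference in promoter share fell from 22.8 to 14.1 points for SMC1 and from 17.8 to 9.81 for CTCF.

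An SMC1 promoter peak was found at 904 of 1432 coding genes of chromosome 19 with an annotated coding transcript, or 63.1%, and at 177 of 262 on chromosome 18, or 67.6%, beside 64.2% of coding genes on all autosomes. A CTCF promoter peak was found at 46.5% and 49.2%, beside 46.0% on all autosomes. The differences were -4.43 percentage points (-10.4 to 1.95) and -2.73 (-9.28 to 3.81), so neither could be told from 0 at these numbers of genes. The strongest SMC1 peak at a promoter had a median fold enrichment of 4.44 on chromosome 19 and 4.49 on chromosome 18, and the strongest CTCF peak one of 5.42 and 5.15. The sign of these differences depended on the promoter definition. Within 2500 bp they were 1.177 (SMC1) and 1.5 (CTCF) points, and over the start itself -1.286 and 2.551. Genes with a CTCF promoter peak alone made up 2.72% on chromosome 19 and 0.763% on chromosome 18. Some other counts by gene were lower on chromosome 19. Without ZNF genes, 59.5% of coding genes there and 66.8% on chromosome 18 had an SMC1 promoter peak, a difference of -7.34 points (-13.5 to -0.719), and for CTCF the difference was -3.29 (-10.03 to 3.45). Promoter peaks for each coding gene numbered 0.757 and 1.02 for SMC1, a ratio of 0.743 (0.650 to 0.851), and 0.496 and 0.598 for CTCF, a ratio of 0.830 (0.698 to 0.991).

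The overlap of the proteins differed from the side of cohesin alone. On chromosome 19 57.4% of SMC1 peaks (55.7 to 59.1) overlapped a CTCF peak, the highest share of any autosome, and on chromosome 18 45.5% (43.3 to 47.6), a difference of 12 points (9.21 to 14.7). CTCF peaks overlapped an SMC1 peak in 76.5% and 76.8%, a difference of -0.287 points (-3.10 to 2.60). With both peak lists held to a -log10 q of at least 10, the difference in SMC1 overlap was 5.28 points. At promoters 56.9% and 53.5% of SMC1 peaks had a CTCF peak, a difference of 3.43 points (-3.11 to 10.04). In introns the shares were 54.2% and 38.1%, and between genes 63.8% and 53.0%. SMC1 peaks without CTCF were 1.59-fold denser on chromosome 19 and SMC1 peaks with CTCF 2.58-fold.

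Peak heights were close. Over all SMC1 peaks the median fold enrichment was 3.55 on chromosome 19 and 3.31 on chromosome 18. SMC1 peaks that shared a place with CTCF had a median fold enrichment of 4.57 on chromosome 19 and 4.65 on chromosome 18, and those without CTCF one of 2.69 and 2.76. For CTCF the medians were 4.95 and 5.06 over all peaks. The median -log10 q was higher on chromosome 19, at 21.0 against 12.8 for SMC1 and 26.0 against 17.9 for CTCF. Peaks were also wider there, with medians of 754.5 and 647 bp for SMC1 and of 528 and 465.5 bp for CTCF. Chromosome 19 has a GC content of 47.9% and chromosome 18 one of 39.8%. Sites of DpnII, the enzyme that cut the chromatin at GATC, number 2.99 per kb on chromosome 19, the most of any autosome, and 2.25 on chromosome 18, the fewest. The part of GC content and of cut sites in these values was not tested.

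The consensus printed above occurred 40.6 times per Mb on chromosome 19 and 22.2 times on chromosome 18, a ratio of 1.83 that lies below that of the CTCF peaks. Of its 2373 matches on chromosome 19, 443 or 18.7% lay in a CTCF peak, against 221 of 1777 or 12.4% on chromosome 18. The difference was 6.23 points (4.02 to 8.41). CTCF peaks also covered more bases, at 25.5 kb per Mb on chromosome 19 and 8.86 on chromosome 18. The difference was not corrected for this coverage, so it does not show a preference for matches on chromosome 19. Within 150 bp of the summit, 11.4% of CTCF peaks on chromosome 19 and 12.0% on chromosome 18 held a match, where the same windows moved by 1000 bp held one in 1.97% and 1.08%. SMC1 peaks with a CTCF peak held a match in 12.1% and 13.5%. SMC1 peaks without one held it in 1.502% and 0.524%, no more than the moved windows with 2.33% and 1.31%. An exact match to 8 letters misses weaker sites, so these shares compare the chromosomes and do not count all CTCF sites.

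Per Mb, loops set the chromosomes further apart than peaks did. MAPS called a loop as a pair of 5 kb bins with more read pairs than its regression expects. Both loop lists keep the names of their labels here. Each has as many loops as the study tabulates for the other protein, and the shares below also match exchanged labels. Over all autosomes, 51.4% of SMC1 peaks lay at an anchor of the list labelled CTCF and 22.3% at one of the list labelled SMC1. Of CTCF peaks, 28.4% lay at an anchor of the list labelled SMC1 and 55.5% at one of the list labelled CTCF. The study's tabulated shares of peaks at loop anchors are close to 51.4% and 28.4%, those with the labels exchanged. Every loop of chromosomes 19 and 18 in the list labelled CTCF has an SMC1 peak at an anchor, and every one in the list labelled SMC1 has a CTCF peak at an anchor. The protein on the label had a peak at an anchor in 96.4% and 95.2% of loops labelled CTCF on chromosomes 19 and 18. For those labelled SMC1 these shares were 99.9% and 100%. The study states that its loops have an anchor enriched in the target protein. On these values the list labelled CTCF most likely belongs to SMC1, and the list labelled SMC1 to CTCF. Peaks and loops of the same label would then come from different proteins. Chromosome 19 had 43.7 loops labelled SMC1 per Mb (42 to 45.4) and chromosome 18 had 4.66 (4.20 to 5.16), a ratio of 9.38 (8.41 to 10.5). For loops labelled CTCF the densities were 71.2 (69.1 to 73.4) and 18.3 (17.4 to 19.3), a ratio of 3.88 (3.66 to 4.12). Over all autosomes these densities were 10.1 and 28.8 per Mb.

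Counts for each coding gene depended on the list and on how loops were counted. Chromosome 19 had 1.73 loops labelled SMC1 for each coding gene and chromosome 18 had 1.40, a ratio of 1.23 (1.11 to 1.38). With 1 loop for each cluster of neighbouring bin pairs the ratio per Mb fell from 9.38 to 5.98, and that per gene, computed so after seeing the data, turned to 0.787. Among loops with at least the median of read pairs the ratio per Mb was 14.5. It had 2.82 loops labelled CTCF for each coding gene against 5.52, a ratio of 0.511 (0.481 to 0.542), again the lowest and the highest value of the 22 autosomes. For each SMC1 peak there were 0.816 loops labelled SMC1 on chromosome 19 and 0.178 on chromosome 18, and 1.33 and 0.699 loops labelled CTCF. A peak of chromosome 19 also lay at an anchor more often. Of CTCF peaks, 50.7% touched an anchor of the list labelled SMC1 on chromosome 19 and 22.2% on chromosome 18, while an anchor of the list labelled CTCF was touched by 63.6% and 52.3%.

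Loops of chromosome 19 were short. Loops labelled SMC1 spanned a median of 105 kb and those labelled CTCF 90 kb, the shortest of any autosome, against 170 and 155 kb on chromosome 18. Among loops with at least the median of read pairs the difference shrank from -65 to -25 kb in the list labelled SMC1 and to -55 kb in the other. Spans of 200 kb to under 500 kb made up 17.5% and 11.1% of loops on chromosome 19 and 39.4% and 33.8% on chromosome 18. Loops of 500 kb or more made up 0.744% and 0.649% against 4.02% and 4.49%. A loop labelled SMC1 had a median of 2 coding starts between its anchors on chromosome 19 and 1 on chromosome 18, and 12.8% against 38.9% had none. The shorter span held for loops with a promoter at a single anchor, at 105 against 165 kb in that list, and for those with none, at 115 against 180 kb. Between a pair of promoters the medians in that list were 95 kb and 85 kb, the latter from 15 loops. In the list labelled CTCF they were 80 kb and 100 kb, from 842 and 49 loops. Loops labelled SMC1 had a median of 25 read pairs on chromosome 19 and 19 on chromosome 18, and those labelled CTCF 25 and 23. Relative to the regression the order was the other way, with a median of 3.51 read pairs observed for each expected in the list labelled SMC1, against 4.61 on chromosome 18, and of 3.69 against 4.19 in the other list. The median of read pairs expected was 6.83 against 4.06, and 6.79 against 5.20.

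**Figure D2:**
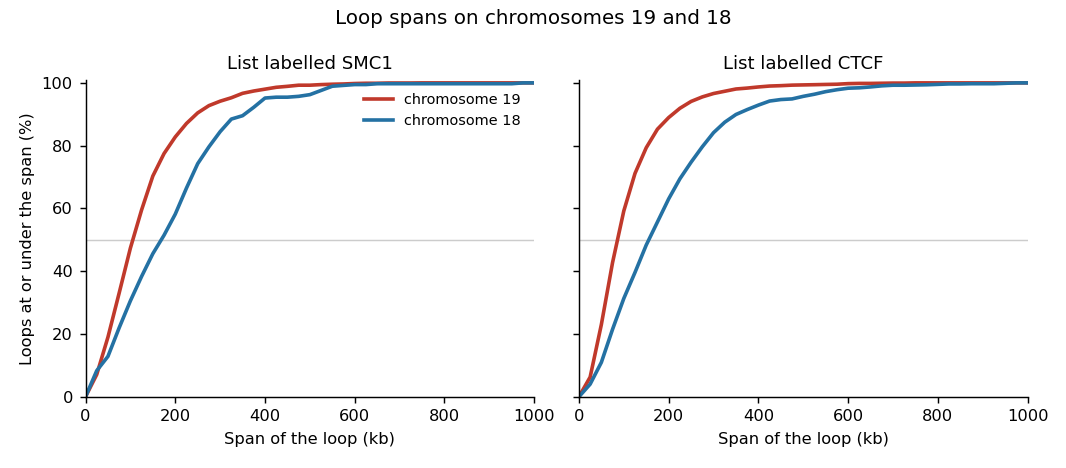
Share of loops (%) at or under each span (kb) on chromosome 19 in red and chromosome 18 in blue, for the list labelled SMC1 (left) and CTCF (right). The red curves cross the 50% line near the medians of 105 and 90 kb and the blue ones near 170 and 155 kb.

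The longest loops show the same contrast. On chromosome 19 the longest of the list labelled SMC1 joined chr19:6125001-6130000 and chr19:6860001-6865000 over 735 kb with 17 read pairs. In the list labelled CTCF the longest span was 750 kb, reached by more than a single loop, among them one with 13 read pairs that ended at the promoter of ZNF329. On chromosome 18 they spanned 955 kb, with an anchor inside DLGAP1, and 975 kb, with an anchor inside SYT4, each with 16 read pairs. The best covered loop of chromosome 19 was the same in both lists and short. It joined chr19:12775001-12780000, at the promoter of HOOK2, an adaptor of microtubule transport, to chr19:12795001-12800000 over 20 kb, with 426 and 850 read pairs. That of chromosome 18, again shared, joined chr18:13555001-13560000 and chr18:13630001-13635000 inside LDLRAD4 over 75 kb, with 139 and 386 read pairs and no coding promoter at either end.

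Loops with a promoter at both ends made up a larger share on chromosome 19. Of its loops labelled SMC1, 17.9% (16.5 to 19.4) had a coding promoter within 1 kb of both anchors, 44.2% of a single anchor and 37.9% of none. On chromosome 18 the shares were 4.02% (2.45 to 6.53), 35.7% and 60.3%. Of loops labelled CTCF, 20.2%, 44.8% and 35.0% on chromosome 19 stood against 3.34%, 35.9% and 60.7% on chromosome 18. Over all autosomes, 9.39% of loops labelled SMC1 and 7.25% of those labelled CTCF had promoters at both anchors. Of distinct anchors labelled SMC1, 39.0% on chromosome 19 and 17.6% on chromosome 18 lay at a coding promoter. For anchors labelled CTCF these shares were 40.5% and 15.65%. Whether promoters were paired beyond their share of anchors was not tested. Loops between a pair of promoters were 7.82 per Mb on chromosome 19 and 0.187 on chromosome 18 in the list labelled SMC1, which is 457 against 15 loops. The difference of 13.9 points in the share of such loops was 21.8 with starts allowed within 2500 bp and 21.0 with starts of all annotated genes, which also brought that in loops with any promoter from 22.4 to 14.2. Loops with no promoter were also denser, 5.89-fold in that list and 2.24-fold in the other.

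Counted by gene, 610 of 1432 coding genes of chromosome 19, or 42.6% (40.1 to 45.2), had a loop labelled SMC1 at a promoter, beside 18.7% (14.5 to 23.9) of chromosome 18 and 26.3% of all autosomes. For the list labelled CTCF the shares were 57.6%, 43.9% and 49.3%. A loop to another coding promoter was found for 29.8% and 7.25% of genes in the list labelled SMC1, beside 14.4% on all autosomes, and for 47.9% and 17.9% in the list labelled CTCF, beside 28.5%. Among genes with an SMC1 promoter peak, 53.2% on chromosome 19 and 27.1% on chromosome 18 had a loop labelled SMC1, beside 35.2% on all autosomes. Among genes with a CTCF promoter peak, 74.8% and 65.9% had a loop labelled CTCF, beside 70.8%. With the labels exchanged, these shares set peaks of a protein beside loops of the other. Once looped, a promoter had a median of 2 loops labelled SMC1 on either chromosome, and of 4 loops labelled CTCF on chromosome 19 and 3 on chromosome 18.

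**Figure D3:**
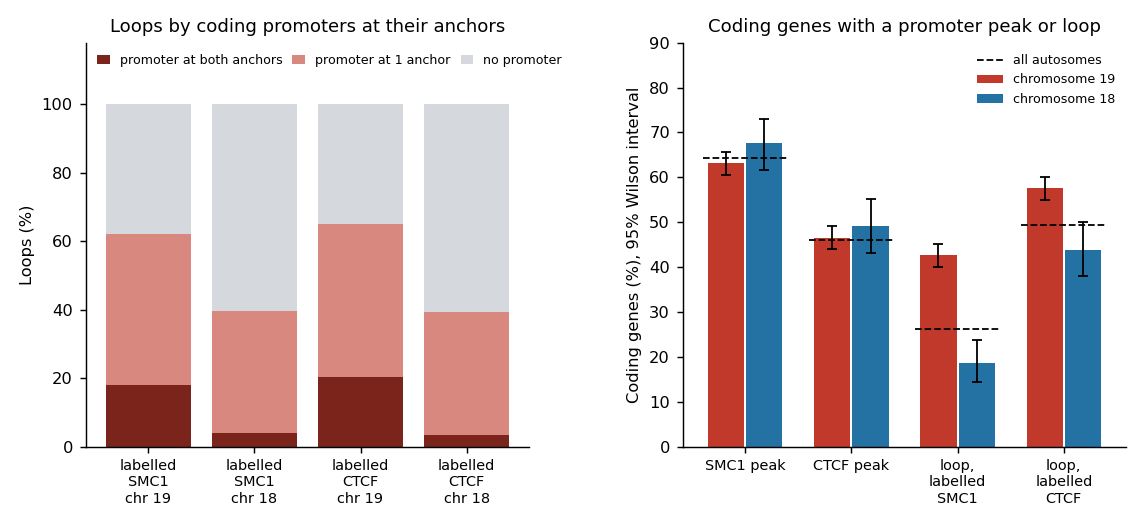
Left, loops (%) by whether a coding promoter lies within 1 kb of both anchors, a single anchor or none, for each list and chromosome. Right, coding genes (%) with a promoter peak or a promoter loop on chromosome 19 (red) and 18 (blue), with 95% Wilson intervals and a dashed line for all autosomes. Peak shares lie at 63.1% and 67.6% for SMC1 and 46.5% and 49.2% for CTCF, while loop shares part to 42.6% and 18.7% and to 57.6% and 43.9%.

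With 15 kb allowed at each anchor, 75.1% of loops labelled CTCF on chromosome 19 were also in the list labelled SMC1, the highest share of any autosome, against 46.6% on chromosome 18. The difference was 28.5 points (25.6 to 31.3). The list labelled SMC1 had 2553 loops to 4163 of the other on chromosome 19 but 373 to 1469 on chromosome 18, and the difference cannot be told apart from these lengths. From the other side the shares were 91.7% and 91.2%, a difference of 0.504 points (-2.22 to 3.97) that turned to -10.6 when anchors had to match without tolerance. Loops lay over 50.5% of chromosome 19 and 20.6% of chromosome 18 in the list labelled SMC1, and over 64.6% and 46.3% in the list labelled CTCF.

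Few loops had a single orientation of the consensus at each end. Among loops labelled CTCF, 65 of chromosome 19 and 32 of chromosome 18 did so, and 63.1% (50.9 to 73.8) and 71.9% (54.6 to 84.4) of them were convergent. A single divergent pair was seen on chromosome 19 and 2 on chromosome 18. Among loops labelled SMC1 29 of 47 and 11 of 12 were convergent. The differences were -8.80 points (-26.3 to 11.5) for loops labelled CTCF and -29.96 (-45.8 to -0.159) for those labelled SMC1, the latter from 12 loops on chromosome 18. Loops that share an anchor are not independent, which the intervals do not take into account.

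On chromosome 19 MRPS12 and SARS2, a mitochondrial ribosomal protein and the mitochondrial seryl-tRNA synthetase that share a promoter, had 39 loops labelled SMC1, of which 14 went to other promoters. ATP5F1D, a subunit of ATP synthase, REX1BD and ZNF20 had 22 each. In the list labelled CTCF the first were MYO9B with 35, GYS1, the muscle glycogen synthase, with 31, HAUS8 with 30, and MRPL4 and TRIP10 with 25 each. MYO9B and HAUS8 start close together on opposite strands, so loops at their shared anchor count for both. On chromosome 18 BCL2, the inhibitor of apoptosis, had 30 of the 373 loops labelled SMC1, followed by CABLES1 with 13, SETBP1 with 9, LOXHD1 with 8 and NPC1 with 6. Of loops labelled CTCF SETBP1 had 35, BCL2 and CABLES1 31 each, SLC14A2 26 and NEDD4L 20.

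Loops of MRPS12 and BCL2 led to different partners. BCL2 reached another coding promoter with 2 of its 30 loops labelled SMC1 and 3 of its 31 labelled CTCF, and MRPS12 with 14 of 39 and 11 of 21. Both promoters had peaks of both proteins. The best SMC1 and CTCF fold enrichments were 8.75 and 10.9 at MRPS12 and 4.49 and 10.2 at BCL2. One promoter entry of each gene is printed from RefSeq on build GRCh38.p14, from 250 bases before to 50 bases after the start and in the sense of the gene, to show the bases behind these anchors. Neither holds the consensus CCANNAGNNGGC on either strand, which 2.57% of all 20545 autosomal coding promoters of this table do, and 3.09% of those on chromosome 19 and 3.09% of those on chromosome 18.
MRPS12, chr19:38930694-38930993, plus strand: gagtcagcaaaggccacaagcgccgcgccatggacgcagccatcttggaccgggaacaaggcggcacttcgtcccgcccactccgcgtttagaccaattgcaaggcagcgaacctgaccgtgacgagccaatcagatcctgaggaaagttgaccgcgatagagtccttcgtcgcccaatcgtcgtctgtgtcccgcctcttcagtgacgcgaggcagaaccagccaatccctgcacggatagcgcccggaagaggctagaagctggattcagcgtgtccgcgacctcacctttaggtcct
BCL2, chr18:63319720-63320019, minus strand: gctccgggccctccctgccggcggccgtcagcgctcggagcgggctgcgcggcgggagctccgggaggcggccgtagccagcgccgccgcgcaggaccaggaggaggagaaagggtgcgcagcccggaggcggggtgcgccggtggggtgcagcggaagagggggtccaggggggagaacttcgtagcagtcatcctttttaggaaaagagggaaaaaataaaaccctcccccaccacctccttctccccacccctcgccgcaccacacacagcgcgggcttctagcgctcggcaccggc

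Promoters of the chromosomes resembled each other in base content, with a median GC of 63.3% on chromosome 19 and 63.0% on chromosome 18 and medians of 21 and 23 CpG. MRPS12 has 28 CpG at 60.3% GC and BCL2 31 CpG at 70.7% GC.

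Loop ends were less evenly spread on chromosome 18, more so in the list labelled SMC1. Of the loop ends labelled SMC1 in its 71 windows of 1 Mb without unknown bases, 50.2% fell into 5 windows, and 30 windows had none. On chromosome 19 the 5 richest of 55 windows held 24.7%, and 10 had none. For the list labelled CTCF the 5 richest windows held 34.04% and 22.5%, and 13 and 8 windows had none. The richest window of chromosome 18, chr18:58000001-59000000, had 113 loop ends labelled SMC1, 232 labelled CTCF and only 4 coding starts, those of NEDD4L, ALPK2, MALT1 and ZNF532. MALT1 encodes a protease of antigen receptor signalling. At its own promoter it had 3 loops labelled SMC1 and 5 labelled CTCF, and ALPK2 had none. In the list labelled SMC1 the next window held BCL2, with 76 loop ends and 15 coding starts. In the list labelled CTCF it was chr18:23000001-24000000, with 202 loop ends and 8 coding starts, among them CABLES1 and NPC1. On chromosome 19 the richest windows were chr19:1000001-2000000 with 274 loop ends labelled SMC1 and 39 coding starts, among them STK11, CIRBP, GPX4 and TCF3, and chr19:10000001-11000000 with 423 labelled CTCF and 39 coding starts, among them ICAM1, ICAM3, TYK2, DNMT1 and SMARCA4. The windows chr19:25000001-26000000 and chr18:17000001-18000000 had no coding start and 0 peaks of either protein, and each chromosome had another such window. Reads mapped poorly were removed before peaks were called, and how well reads map in these windows was not examined.

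Windows of like gene number place these counts beside the other autosomes. In windows with 20 or more coding starts, of which chromosome 19 has 39, chromosome 18 none and the other 20 autosomes 166, the median of SMC1 peaks was 71 on chromosome 19 and 66 elsewhere, and of CTCF peaks 54 and 51. Peak numbers in such windows were thus close. Loop ends were not. The median was 121 labelled SMC1 on chromosome 19 and 60.5 elsewhere, with quartiles of 63 and 170 and of 30.25 and 116, and 208 against 141.5 labelled CTCF. The chromosome 19 windows had a median of 31 coding starts and 49.3% GC against 26 and 47.1%, and the part of either was not tested.

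The 4 windows of chromosome 19 with 5 to 9 coding starts had a median of 8.5 SMC1 and 6 CTCF peaks, against 52 and 27 in the 16 of chromosome 18 and 42 and 27 elsewhere. In 3 of these 4 windows, 7 of 7, 8 of 8 and 7 of 9 coding starts were of ZNF genes and SMC1 peaks numbered 8, 2 and 9, while the window without a ZNF gene had 42 SMC1 and 30 CTCF peaks. The 7 windows of chromosome 19 with 10 to 19 had 31 SMC1 and 25 CTCF peaks, against 48.5 and 33 in 4 windows of chromosome 18 and 56 and 37 elsewhere. Of their coding starts, 0 of 15, 9 of 10, 1 of 10, 0 of 10, 5 of 14, 13 of 18 and 9 of 18 were of ZNF genes. In windows with 0 to 4 coding starts the 51 of chromosome 18 had medians of 12 and 9, beside 13 and 10 elsewhere. The 5 such windows of chromosome 19 had medians of 0 and 1. In these classes with fewer than 20 coding starts, the peak medians of chromosome 19 were below those of both others, but they rest on 5, 4 and 7 windows.

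**Figure D4:**
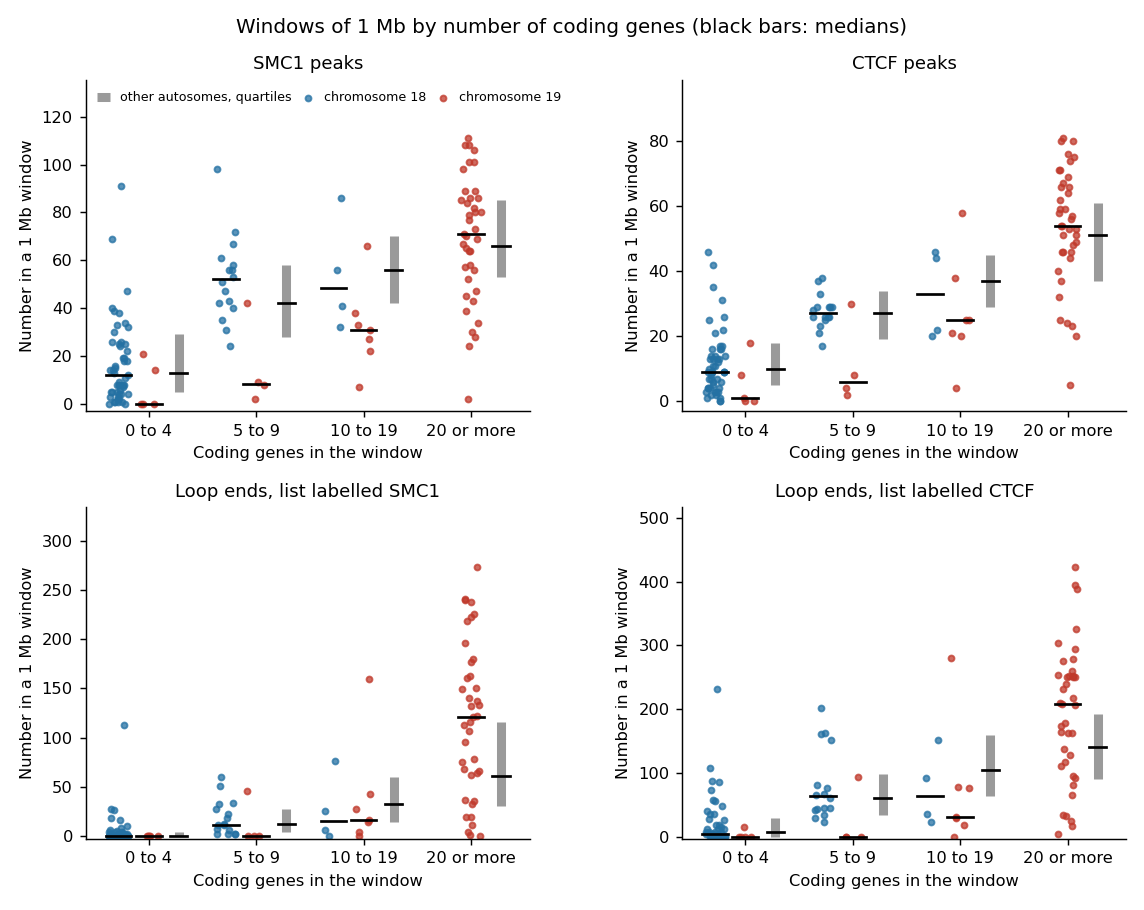
Peaks (top) and loop ends (bottom) in windows of 1 Mb, grouped by coding starts in the window. Points are windows of chromosome 18 (blue) and 19 (red), black bars medians, and grey bars the quartiles of the other 20 autosomes. In windows with 20 or more coding starts the red medians lie at 71 and 54 peaks, close to 66 and 51 elsewhere, and at 121 and 208 loop ends, above 60.5 and 141.5.

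The zinc finger genes named ZNF make up 248 of the coding genes of chromosome 19, and 200 of them, or 80.7% beside 64.2% of all coding genes, had an SMC1 promoter peak and 51, or 20.6% beside 26.3%, a loop labelled SMC1. Windows with 5 or more of them had a median of 36 SMC1 peaks and 23 loop ends labelled SMC1, against 70 and 116 in the other 35 windows.

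A hand-written list, called lymphoid here, held 36 genes of chromosome 19 and 25 of chromosome 18 that have known roles in lymphocytes, but many of them, such as DNMT1, SMAD2, ROCK1, TYMS and NDUFV2, are used in most cells. An SMC1 promoter peak was found at 32 of the 36 and all of the 25, or 88.9% and 100% beside 64.2% of all coding genes. A CTCF promoter peak was found at 19 and 18, or 52.8% and 72% beside 46.0%. A loop labelled SMC1 was found at 25 and 13, or 69.4% and 52% beside 26.3%, and one labelled CTCF at 31 and 20, or 86.1% and 80% beside 49.3%. Of 28 genes of other tissues on chromosome 19, 6 had an SMC1 promoter peak and 10 a loop labelled SMC1, and of 31 on chromosome 18, 7 and 1. A CTCF promoter peak was found at 6 and 6 of them, and a loop labelled CTCF at 14 on chromosome 19, or 50% beside 49.3% of all coding genes, and at 4 on chromosome 18. The lists are short and were drawn up by hand, and these counts are a description beside the shares over all autosomes given above.

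JUND, a subunit of the AP-1 factor, had 11 loops labelled SMC1 and 10 labelled CTCF. POU2F2, which encodes an octamer-binding factor of B cells, had an SMC1 fold enrichment of 5.61, a CTCF fold enrichment of 13.2, 10 loops labelled SMC1 and 15 labelled CTCF. CD22, an inhibitory receptor of B cells, had 6 and 10 loops, and TCF3, a master regulator of B cell fate, 5 and 11. CD79A, the signalling partner of the B cell receptor, had an SMC1 peak at a fold enrichment of 3.45 without a CTCF peak, and 3 and 5 loops. SPIB, a factor of B cells, had the weakest SMC1 peak among the lymphoid genes of chromosome 19, at 1.83, and 1 and 4 loops. CD37, a tetraspanin of B cells, had 0 and 3. The 6 genes taken as B cell markers, CD79A, CD22, CD37, SPIB, POU2F2 and the IgE receptor gene FCER2, all had an SMC1 promoter peak, as had 63.1% of coding genes of the chromosome, and CD79A, CD37 and SPIB had no CTCF promoter peak. The files hold no expression, so these peaks do not settle the cell type. LAIR1 and LILRB1, inhibitory receptors found on part of B cells, had no peak and no loop.

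On chromosome 18 BCL2 stood apart from the other lymphoid genes in the list labelled SMC1, with 30 loops where the next, MBP, had 5. In the list labelled CTCF it had 31, and TGIF1, MYL12A, PTPN2, MBP and SMAD7 had 16, 15, 14, 13 and 12. TNFRSF11A, the receptor RANK, had a CTCF fold enrichment of 15.6 but 1 and 4 loops. TCF4, an E protein of lymphocytes, had 6 SMC1 promoter peaks over its many starts and 1 and 8 loops. SMAD2 and ROCK1 had promoter peaks and no loop in either list, and so did TYMS, PIK3C3 and RAB27B.

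**Figure D5:**
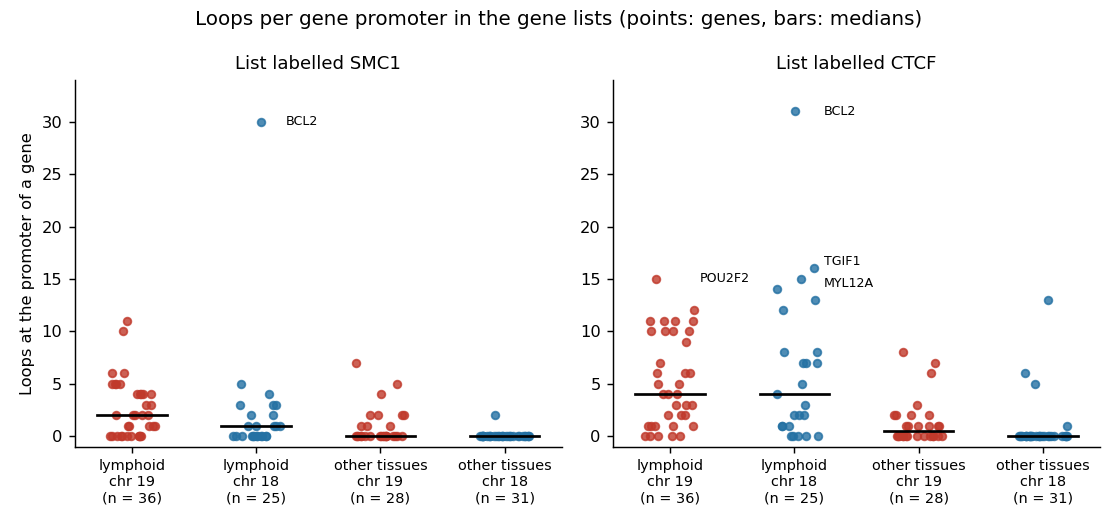
Loops at the promoter of each gene in the lists of lymphoid genes and of genes of other tissues on chromosomes 19 (red) and 18 (blue), for the list labelled SMC1 (left) and CTCF (right). Points are genes and bars medians, which are 2 and 1 (left) and 4 and 4 (right) for the lymphoid genes. BCL2 lies alone at 30 and 31 loops.

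Gene clusters of other tissues ranged from empty to near the share of all genes. The 10 LILR and 6 KIR genes of chromosome 19, receptors of myeloid and natural killer cells, had 0 promoter peaks and 0 promoter loops of either list. The 10 PSG genes, expressed in placenta, had 0 SMC1 peaks, a CTCF peak at 2 genes and 0 loops. Of 12 CEACAM genes, 2 had an SMC1 and 5 a CTCF promoter peak, or 41.7% beside 46.0% of all coding genes for CTCF. Of 15 KLK genes, which encode proteases of prostate and skin among other tissues, 3 had an SMC1 and 2 a CTCF promoter peak, or 20% and 13.3% beside 64.2% and 46.0%, while 4 had a loop labelled SMC1 and 7 one labelled CTCF, or 26.7% and 46.7% beside 26.3% and 49.3%. Of 12 CYP genes, which encode cytochrome P450 enzymes, 2 and 4 had such loops. On chromosome 18 the 7 DSG and DSC genes, the desmosomal cadherins of epithelia, and the 4 CDH genes had 0 of each. Of the 10 SERPINB genes 3 had an SMC1 and 2 a CTCF promoter peak, beside 64.2% and 46.0% of all coding genes. SERPINB2, a protease inhibitor of macrophages, had a fold enrichment of 6.71 for SMC1 and 6.52 for CTCF with 0 loops labelled SMC1 and 6 labelled CTCF. The LILR, KIR and PSG genes are close copies of each other and reads mapped poorly were removed before peaks were called, so counts at these clusters are uncertain. Some genes of other tissues had many loops. TTR, a transport protein of liver, had 2 peaks of each protein and 13 loops labelled CTCF. On chromosome 19 KLK4 had 7 and 8 loops and no peak, FFAR1, a fatty acid receptor, 5 and 7 loops with 2 peaks of each protein, and APOE, an apolipoprotein, 4 and 6 loops and no peak. The 12 ribosomal protein genes RPL and RPS of chromosome 19, used in every cell, had an SMC1 promoter peak at 9 and a CTCF promoter peak at 6, or 75% and 50% beside 64.2% and 46.0%, and loops labelled SMC1 at 7 and CTCF at 9, or 58.3% and 75% beside 26.3% and 49.3%.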

How the data were processed

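SMC1 FA-EGS HiChIP and CTCF HiChIP were measured in 2 biological replicates each, pooled by the authors. Before deposition the authors mapped reads to hg38 by BWA-MEM, kept those mapped well and not duplicated, and ran MACS3 (version 3.0.1 in the submitters' processing notes). The deposited fold enrichment is a ratio to the local background, and the deposited significance is the -log10 of the q-value. For loops the authors deposited counts of read pairs for pairs of 5 kb bins, beside the score that MAPS expects and its false discovery q-value. The depth per replicate is not given in the sources used here.

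Peaks and loops of autosomes were counted with Python 3.11.15, NumPy 2.4.6, SciPy 1.17.1 and pandas 2.3.3 and drawn with Matplotlib 3.10.9. Overlaps, nearness to starts, loop matching, intervals of ratios and differences, and the consensus search were tested on simulated data. Other steps were not. Overlap meant at least 1 bp, promoters 1 kb around starts of coding transcripts of GENCODE release 44, and shared loops a tolerance of 15 kb. Shares have Wilson intervals, differences Newcombe intervals, densities exact Poisson intervals and ratios exact conditional intervals. Named were the 3 strongest peaks, the 5 genes with most loops, the loop with most read pairs, the longest loop and the richest and poorest windows of each chromosome and list, with hand-written gene lists. Some genes that this rule or the lists take in are not reported here. Other genes named were chosen after their values were seen. Members and lists were chosen with earlier results of these data known. Alternatives changed thresholds, promoter definitions, loop tolerance and the assignment of the loop lists.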

Additional observations from a re-analysis of the deposited data

How the results depend on the processing

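No paired analysis was possible because the replicates of each target were pooled into 1 list before deposition, and for the same reason no replicate could be left out. Of 78 alternatives for 25 results, 25 stayed within the interval of the reported value, 50 went outside it, and 3, all ratios of loops per gene, reversed a value whose interval had excluded no difference. In 8, those 3 included, the value passed to the other side of no difference. The other 5 were the shared loops labelled SMC1, the consensus share, and the difference in genes with a promoter peak. That difference was 1.177 (SMC1) and 1.5 (CTCF) points within 2500 bp and 2.551 (CTCF) over the start itself. Exchanging the loop lists made up 14 of the 78 alternatives and only swaps values already reported. Of these 14, 10 fell outside the interval, and the exchanged ratios per gene are among the 3 that reversed. The cause of the other changes was not tested. Values below compare chromosome 19 with chromosome 18. With a -log10 q of at least 5 or 10 the ratio of SMC1 peaks per Mb was 2.247 or 2.521, and with at least 10 that of CTCF peaks was 2.787. By covered bases the ratios were 2.25 and 2.881, and away from promoters 1.506 and 2.055. Without the 20 windows of ZNF genes they were 2.295 and 2.921, the ratios per coding gene 0.3084 and 0.3926, those of loops per Mb 10.93 (labelled SMC1) and 4.407 (labelled CTCF), and those of loops per gene 1.468 and 0.5922. Counting all annotated genes gave 0.6123 SMC1 and 0.7733 CTCF peaks per gene as ratios. With both lists at a -log10 q of at least 10 the difference in SMC1 overlap was 5.28 points. The difference in promoter share was 14.08 (SMC1) and 9.805 (CTCF) points for peaks over the start itself, and 27.88 and 23.23 within 2500 bp.

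For loops labelled SMC1 and CTCF in this order, those with at least the median of read pairs had density ratios of 14.51 and 4.393 and span differences of -25 and -55 kb, and 1 loop for each cluster gave 5.982 and 2.766 per Mb and, chosen after seeing the data, 0.7867 and 0.3638 per gene. The difference in loops with promoters at both anchors was 9.468 and 11.4 points with the start inside the anchor, 21.8 and 24.35 within 2500 bp, and 21.04 and 21.89 with all genes. That in loops with any promoter was 29.66 and 30.37 within 2500 bp, and 14.18 and 18.2 with all genes. With no tolerance the difference in shared loops was -10.58 and 20.1 points. Exchanging the lists gave density ratios of 3.884 and 9.38, ratios per gene of 0.5107 and 1.233, which both changed direction, differences in loops with both promoters of 16.89 and 13.88, in shared loops of 28.48 and 0.5041, in loops labelled CTCF with any promoter of 22.44, and in their convergent share of -29.96 points. A consensus with letters kept at 0.6 gave a difference of 2.384 points in CTCF peaks with a match, and left no oriented loop on chromosome 18 in either list, so convergent shares could not be compared.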
